A study of Mus musculus with 2 samples.

Results

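Histone genes were examined in single-cell RNA sequencing (scRNA-seq) counts from mouse embryonic stem cells (ESCs) and from 48h-EpiLCs, the epiblast-like cells that ESCs give in 48 h. Genes were taken by symbol (Hist1h to Hist4h, H2af, H3f3 and H1f, pseudogenes left out), which gave 83 of the 32286 counted features. Of these, 67 were replication-dependent histone genes (6 H1, 18 H2A, 18 H2B, 12 H3 and 13 H4 genes), 15 were variant histone genes, and 1, H3f3aos, was an antisense RNA gene that shares the H3f3 prefix. H3f3aos was left out of every sum and held at most 0.422 CPM (UMIs of a gene per 1000000 UMIs of its cells) in any class.

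Each of the 2 libraries came from 2 kinds of cell mixed in equal number, wild type (WT) with the tdTomato-coding ROSA mT/mG reporter and Cnot8 knockout (KO), whose lesion was made with Cas9 and a guide RNA to exon 2 of Cnot8. The strain tag of both libraries was ICR. The ESCs (S/LIF, that is serum with LIF) grew on feeder cells, which in the study were mitomycin C-treated mouse embryonic fibroblasts, and the 48h-EpiLCs grew on Matrigel in N2B27 medium with activin A, bFGF and knockout serum replacement. KO ESC lines were derived from blastocysts of heterozygous parents by picking colonies, and how many clones entered the mixtures was not given in the sources used here. The genotype tag of both libraries reads wild type, while their titles name the mixture.

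Barcodes in which 1000 or more genes were detected and in which no more than 10% of UMIs were mitochondrial were kept, 11054 of 13184 barcodes in the ESC library and 9400 of 12427 in the 48h-EpiLC library. A UMI (unique molecular identifier) marks 1 captured RNA molecule. Kept cells with at least 1 tdTomato UMI and 0 UMIs of the Y-linked genes Ddx3y, Eif2s3y, Kdm5d and Uty were called the WT line (435 ESCs and 368 48h-EpiLCs). Kept cells with 0 tdTomato UMIs and at least 2 Y-linked UMIs were called the KO line (2978 and 2977 cells). The remaining kept cells met neither rule, and the median kept cell had 11883 UMIs in the ESC and 15284 in the 48h-EpiLC library, below those of the called cells. The rule itself sets the difference in Y-linked UMIs, which is no result, and any difference in sex or descent between the lines cannot be told apart from that in Cnot8 here. The 4 classes held 6154790 UMIs (WT ESCs), 44110356 (KO ESCs), 6219834 (WT 48h-EpiLCs) and 59291903 (KO 48h-EpiLCs), with a median of 13151 to 17628 UMIs per cell. Cnot8 itself had 43.1 CPM in WT ESCs and 72.1 in KO ESCs, and 49.7 and 62.6 CPM in the 48h-EpiLCs, but 3′ counts outside the targeted exon check nothing about the genotype. The libraries shared 41 cell barcodes. The ESC markers Zfp42, Klf2, Klf4 and Esrrb summed to 906 and 1214 CPM in WT and KO ESCs and to 87.0 and 206 CPM in WT and KO 48h-EpiLCs. The EpiLC markers Fgf5, Pou3f1, Otx2 and Dnmt3b summed to 310 and 351 CPM in the ESCs and 1109 and 954 CPM in the 48h-EpiLCs.

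There was 1 library per stage, and cells of 1 library are not replicates. Values are therefore UMIs summed over the cells of a class, as CPM, and differences are log2 ratios of CPM with 95% intervals that cover counting error only. No test was possible. A feature counted as past 1.5-fold, the threshold of the study for bulk RNA-seq, where the ratio of CPM + 1 passed it, among features of at least 5 CPM on average in the 2 classes compared.

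Core histones H2A, H2B, H3 and H4 form the nucleosome, and H1 binds the linker DNA. Replication-dependent histone genes lie in clusters and are transcribed in S phase, and their mRNAs are the metazoan mRNAs that end in a stem-loop, bound by SLBP and formed by cleavage guided by the U7 snRNP, in place of a poly(A) tail. Variant histones such as H2A.Z and H3.3 come from genes outside these clusters with introns or long 3′ UTRs, are made through the cell cycle and have polyadenylated mRNAs. CNOT8 is a deadenylase subunit of the CCR4-NOT complex, which shortens poly(A) tails. The libraries were primed with oligo-dT near the 3′ end, which captures poly(A) tails and can also prime within A-rich stretches, so CPM of replication-dependent genes are counts of captured molecules and not levels of total mRNA.

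The stem-loops of genes on which the results turn are shown first, read from GENCODE M21 transcripts on GRCm38, 5′ to 3′ on the strand of the gene. Capitals mark the 16-base stem-loop, with flanking bases in lower case. Hist1h2ae carries the commonest form and Hist1h3c, Hist1h4d, Hist1h4i, Hist2h2ac and H2afx carry the variations on it.
Hist1h2ae: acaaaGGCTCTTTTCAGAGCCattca
Hist1h3c: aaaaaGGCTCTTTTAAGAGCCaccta
Hist1h4d: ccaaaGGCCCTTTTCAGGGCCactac
Hist1h4i: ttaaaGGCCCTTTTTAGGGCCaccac
Hist2h2ac: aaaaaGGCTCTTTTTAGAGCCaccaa
H2afx: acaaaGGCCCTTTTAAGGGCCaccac
These lie at chr13:23570663-23570688 (minus strand) for Hist1h2ae, chr13:23745042-23745067 (minus) for Hist1h3c, chr13:23581945-23581970 (plus) for Hist1h4d, chr13:22040961-22040986 (minus) for Hist1h4i, chr3:96220413-96220438 (minus) for Hist2h2ac and chr9:44335235-44335260 (plus) for H2afx, all in 3′ UTRs.

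The searched pattern was GG, any 2 bases, CTTTT, any base, AG, any 2 bases, CC, on the strand of the gene. It was found, at any place in an annotated transcript, in 44 of the 67 replication-dependent genes. Of the 15 variants it was found in 1, H2afx, whose mRNA is known both with a stem-loop end and with a poly(A) tail. The matches fell into 7 forms. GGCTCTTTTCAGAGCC was the form of 26 genes of the H1, H2A, H2B and H3 families. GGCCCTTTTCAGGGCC was found in 7 genes, all H4, and the other 4 H4 matches also differed from the commonest form. Of the 67 genes, 13 had no annotated 3′ UTR, so no match there says only that the letters are not in the annotated transcript. An AATAAA hexamer stood near the annotated end of 15 replication-dependent genes and of 10 variants.

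A-rich stretches within the transcripts are shown for the genes with some of the richest 20-base windows, with A in capitals, again from GENCODE M21 on GRCm38.
Hist1h2ap: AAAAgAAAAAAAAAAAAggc
Hist1h1d: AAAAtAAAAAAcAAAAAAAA
H3f3b: AAAAAAAAAAAAgtAAAcct
The Hist1h2ap window, at chr13:21833042-21833061 on the minus strand, runs into the stem-loop itself, and 16 of its 20 bases are A. In Hist1h1d the window (chr13:23558862-23558881, plus strand, 18 of 20 bases A) lies in an annotated 3′ UTR that goes on for 4884 bases after the stem-loop. The H3f3b window (chr11:116022945-116022964, minus strand) has 15. Windows not shown can be richer, as in the variant H2afy, with 17. Whether reads start at these stretches was not tested.

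Among the 67 replication-dependent genes, the 22 with a stem-loop and at least 100 annotated bases after it had a median of 5.44 CPM (mean over the 4 classes), the 22 with a stem-loop and a shorter annotated end 3.3 CPM, and the 23 with no match 2.71 CPM. Each group spanned from under 1 CPM to over 70 CPM, the highest being Hist1h2ae (72.6), Hist1h2ap (244) and Hist1h1b (269). For 28 genes 50% or more of the 91-base stretches at the transcript end were shared with another gene, with a median of 1.72 CPM, against 5.64 CPM for the other 39. By its defaults Cell Ranger counts a read only where it maps to 1 gene, and the part of this in the levels was not tested. Hist1h2ap and Hist2h2aa1 share all such stretches with other H2A genes, and Hist1h1e shares its end with the overlapping Hist1h2be transcript on the same strand, so these values are uncertain.

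Promoters from RefSeq (250 bases before to 50 after the start, GRCm38.p6) matched 74 of the 83 genes by Ensembl identifier, symbol or synonym. The letters CCAAT, on either strand, were found in all 49 matched H1, H2A, H2B and H3 replication-dependent promoters but in 3 of 12 H4 promoters, against 37.4% of 32851 promoters of the same length. The octamer ATTTGCAT was found in 7 of 17 H2A and 7 of 16 H2B promoters and in none of the H1, H3 and H4 promoters, against 1.74% of all, and TATAAA in 57.4% of the replication-dependent promoters against 13.6%. These are matches of letters and not sites of binding.

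Histone genes took 0.664% to 0.714% of all UMIs in the 4 classes. The 15 variants summed to 6015 CPM in WT ESCs, 5765 in KO ESCs, 5845 in WT 48h-EpiLCs and 5717 in KO 48h-EpiLCs. The 67 replication-dependent genes summed to 1127, 1181, 1170 and 921 CPM in the same order. Replication-dependent genes thus made up 15.8% of histone UMIs in WT ESCs (95% interval 15.4% to 16.1%, Clopper-Pearson), 17.0% in KO ESCs (16.9% to 17.1%), 16.7% in WT 48h-EpiLCs (16.3% to 17.0%) and 13.9% in KO 48h-EpiLCs (13.8% to 14.0%). The interval of the KO 48h-EpiLCs lay below those of the other 3 classes. The 54 genes of the Hist1 cluster on chromosome 13 held 1064, 1101, 1103 and 859 CPM in the order above, and the 10 of the Hist2 cluster on chromosome 3 held 54.1, 70.8, 54.0 and 54.2 CPM. The summed Hist2 genes were higher in the KO line among ESCs (log2 ratio 0.39, 0.23 to 0.56), and the interval included 0 among 48h-EpiLCs (0.0054, -0.16 to 0.17). Hist1h2ap and Hist1h1b together held 43.8% to 49.8% of replication-dependent UMIs, and H2afz with H3f3a and H3f3b held 84.6% to 89.1% of variant UMIs.

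**Figure D1:**
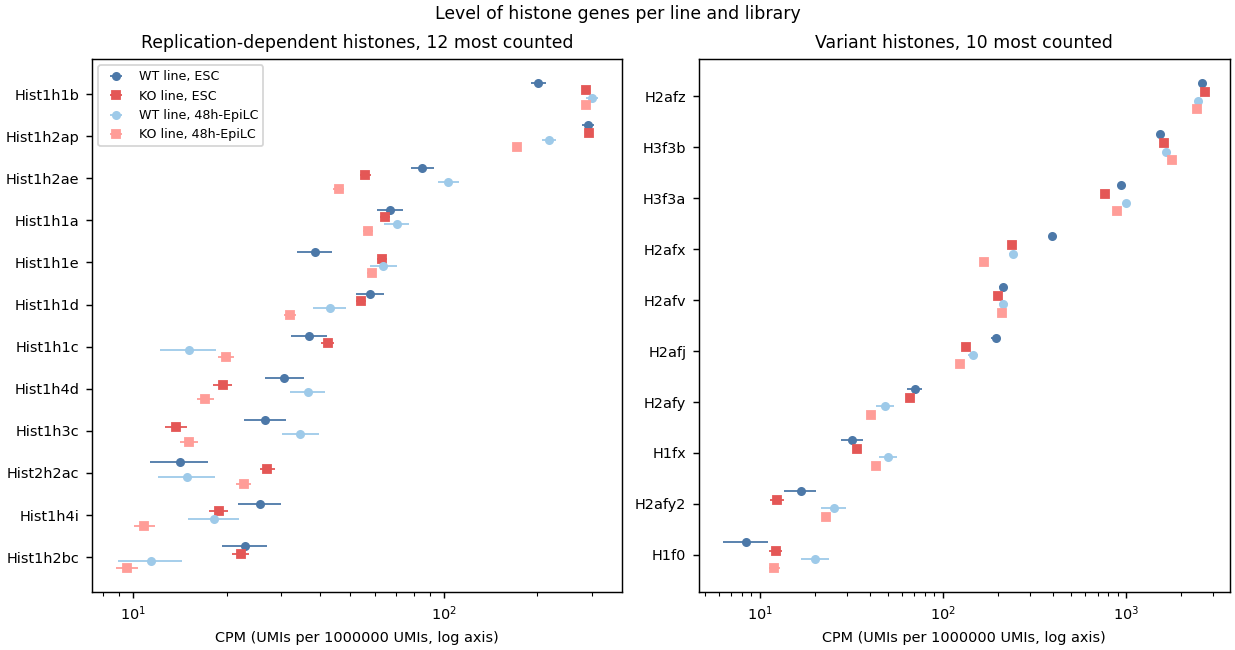
CPM (log axis) of the 12 replication-dependent (left) and 10 variant (right) histone genes with the most UMIs, in the WT line (circles) and the KO line (squares) of the ESC (dark) and 48h-EpiLC (light) libraries; bars are 95% counting intervals. Hist1h1b and Hist1h2ap stand at 171 to 300.2 CPM and the other replication-dependent genes at 9.58 to 103 CPM, while H2afz, H3f3b and H3f3a stand at 763 to 2699 CPM.

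Of the members, 44 reached 5 CPM in at least 1 class (34 replication-dependent genes and 10 variants), and 39 did not. Hist2h2aa2, Hist1h2bq, H2afb2 and H2afb1 had 0 UMIs in the kept cells of both libraries, which allows up to 0.0212 CPM in the ESC and 0.0188 CPM in the 48h-EpiLC library by counting error. Hist2h2aa2 has a copy with an identical end, Hist2h2aa1. Hist2h2aa2 and Hist1h2bq both share 100% of the stretches at the transcript end with other genes. By its defaults Cell Ranger counts a read only where it maps to 1 gene. For Hist2h2aa2 and Hist1h2bq a count of 0 therefore need not mean a level below these limits. The oocyte linker histone H1foo had 9 UMIs in the ESC and 22 in the 48h-EpiLC library, the spermatid linker histone H1fnt had 1 and 6, and H2afb3 had 1 and 0. Apart from the antisense gene H3f3aos, the other members under 5 CPM were replication-dependent genes with at most 4.59 CPM in a class.

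The first question was how the KO line compared with the WT line among ESCs. Replication-dependent histones summed to a log2 ratio of 0.07 (95% interval 0.03 to 0.10), 1.05-fold, and variants to -0.06 (-0.08 to -0.05). The median of all 9277 tested features was 0.12, and relative to it the replication-dependent sum was at -0.06 and the variant sum at -0.19. Among families, linker H1 genes were higher in the KO line, at 516 against 403 CPM (log2 0.36, 0.30 to 0.42), while H3 genes were at 66.1 against 94.9 CPM (-0.52, -0.65 to -0.39) and H4 genes at 71.5 against 96.0 CPM (-0.43, -0.55 to -0.30). H2A genes, at 423 and 439 CPM, had an interval that included 0 (-0.05, -0.11 to 0.01), and H2B genes stood at 104 and 93.9 CPM (0.15, 0.03 to 0.28). Of 37 tested members, 3 were higher and 5 lower past 1.5-fold, against 12.4% higher, 4.98% lower and 17.4% either way of all tested features. The 3 higher were Hist1h1e, Hist1h2bm and Hist2h2ac, and the 5 lower were Hist1h2ae, Hist1h3c, Hist1h3d, Hist1h4d and the variant H2afx.

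Among 48h-EpiLCs, the KO line held fewer replication-dependent histone UMIs, with 921 against 1170 CPM (log2 -0.35, -0.38 to -0.31), 0.787-fold, while variants differed by -0.03 (-0.05 to -0.02). The median of all 9385 tested features was 0.07. All 5 families were lower in the KO line. H3 genes stood at 57.2 against 103 CPM (-0.85, -0.98 to -0.73) and H4 genes at 49.4 against 86.3 CPM (-0.80, -0.94 to -0.67). H2A genes were at -0.47 (-0.53 to -0.41), H2B genes at -0.38 (-0.50 to -0.25) and H1 genes at -0.11 (-0.16 to -0.05). Without H1, the replication-dependent sum was 462 against 675 CPM (-0.55, -0.60 to -0.50), and without Hist1h2ap and Hist1h1b it was 463 against 652 CPM (-0.49, -0.54 to -0.45). Of 38 tested members, none was higher and 11 were lower past 1.5-fold, against 8.07% higher, 4.30% lower and 12.4% either way of all tested features. The 11 were 10 of the 28 tested replication-dependent genes (Hist1h2ae, Hist1h2ak, Hist1h2be, Hist1h2bj, Hist1h3c, Hist1h3d, Hist1h3f, Hist1h4d, Hist1h4h and Hist1h4i) and 1 of the 10 tested variants (H1f0).

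**Figure D2:**
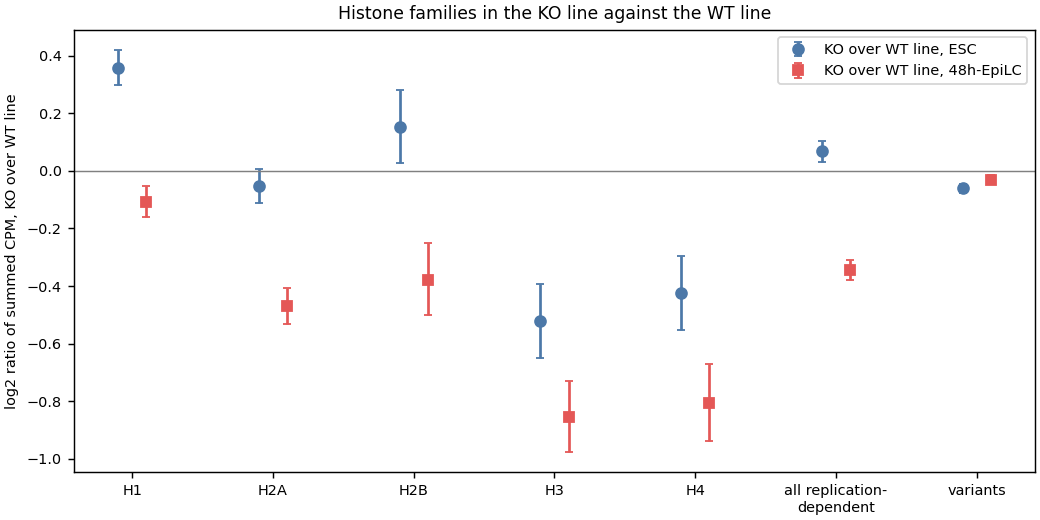
Log2 ratio of summed CPM in the KO line over the WT line for each replication-dependent family, for all replication-dependent genes and for the variants, in the ESC (circles) and 48h-EpiLC (squares) libraries; bars are 95% counting intervals. The variants stand at -0.06 and -0.03, while H3 stands at -0.52 and -0.85 and H4 at -0.43 and -0.80.

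H3 and H4 had the lowest and H1 the highest ratio of the families in each library. Of 24 replication-dependent genes tested in both libraries, 4 (Hist1h2ae, Hist1h4d, Hist1h3c and Hist1h3d) were lower in the KO line past 1.5-fold in both, beside 179 of 8827 features in all, and none was higher in both, beside 376 of the 8827.

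**Figure D3:**
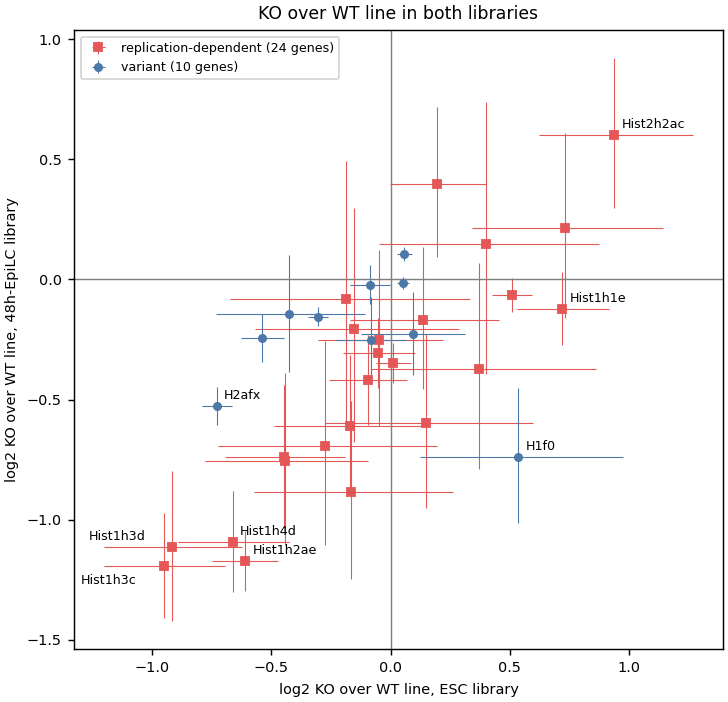
Log2 ratio of CPM in the KO line over the WT line in the ESC library (horizontal) and in the 48h-EpiLC library (vertical) for the 24 replication-dependent (squares) and 10 variant (circles) genes tested in both; bars are 95% counting intervals. Hist1h2ae, Hist1h3c, Hist1h3d and Hist1h4d lie at the lower left, and H1f0 lies at 0.54 and -0.74.

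The cell-cycle lists moved beside these values. The 22 S-phase genes (Mcm2 to Mcm7, Pcna, Rrm2 and others, no histone among them) summed to 3924 CPM in WT and 4161 in KO ESCs, and to 3273 and 4071 CPM in the 48h-EpiLCs. The 21 G2/M genes summed to 3646 and 4216 CPM, and to 3478 and 4457 CPM. Both lists were thus higher in CPM in the KO line in each library, also in the 48h-EpiLCs, where the replication-dependent histones were lower. Among ESCs, however, the log2 ratio of the S-phase list lay below the median of all tested features (0.12), so relative to it that list was lower.

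H2afz, which encodes H2A.Z.1, was the histone gene with the most UMIs, at 2602 CPM in WT ESCs, 2699 in KO ESCs, 2456 in WT 48h-EpiLCs and 2429 in KO 48h-EpiLCs. Its level varied by at most 0.15 on the log2 scale in any of the 4 comparisons. H2afv, which encodes H2A.Z.2, stood at 214, 201, 214 and 210 CPM in that order. The genes of H3.3, H3f3b and H3f3a, had 1542, 1606, 1647 and 1773 CPM and 942, 763, 995 and 893 CPM. Their ratios in the KO line went apart among ESCs, at 0.06 (0.03 to 0.09) for H3f3b, which is -0.07 relative to the median of all features, and -0.30 (-0.34 to -0.26) for H3f3a. Among 48h-EpiLCs they were 0.11 (0.08 to 0.14) and -0.15 (-0.19 to -0.12). H3f3a overlaps the antisense gene H3f3aos, and the use of read strand was not given in the sources used here.

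H2afx, which encodes the H2A.X that is phosphorylated at DNA breaks and whose mRNA carries the stem-loop shown above, had 393, 237, 242 and 168 CPM in WT ESCs, KO ESCs, WT 48h-EpiLCs and KO 48h-EpiLCs. It was lower in the KO line in both libraries, by -0.73 (-0.79 to -0.66) and -0.53 (-0.60 to -0.45), and lower in 48h-EpiLCs in both lines, by -0.70 (-0.79 to -0.61) and -0.50 (-0.54 to -0.46). Past 1.5-fold were the KO line among ESCs and the WT line between the stages. The only other variant with an interval below 0 in all 4 comparisons was H2afj, an H2A variant gene, at 194, 134, 147 and 124 CPM. H2afj was at -0.54 (-0.63 to -0.45) and -0.25 (-0.35 to -0.14) in the KO line and at -0.40 and -0.11 between the stages in the WT and KO lines, where the last became 0.07 without cells that held 5 or more UMIs of feeder or primitive endoderm markers.

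The macroH2A genes H2afy and H2afy2 went opposite ways between the stages. H2afy had 70.0, 66.1, 48.2 and 40.5 CPM, with log2 ratios of 48h-EpiLCs over ESCs of -0.54 (-0.76 to -0.32) in the WT line and -0.71 (-0.78 to -0.63) in the KO line. H2afy2 had 16.7, 12.4, 25.4 and 23.0 CPM, with ratios of 0.60 (0.23 to 0.97) and 0.88 (0.74 to 1.03). The linker variants were also higher in WT 48h-EpiLCs. H1fx, at 32.0, 34.1, 50.5 and 43.1 CPM, had stage ratios of 0.66 (0.40 to 0.92) and 0.34 (0.24 to 0.43) in the WT and KO lines. H1f0, the gene of the H1.0 that accumulates in cells that stop dividing, had 8.45 CPM in WT ESCs, 12.2 in KO ESCs, 20.1 in WT 48h-EpiLCs and 12.0 in KO 48h-EpiLCs. Its stage ratio was 1.25 (0.77 to 1.75) in the WT line and -0.02 (-0.19 to 0.14) in the KO line. H1f0 rested on 52 UMIs in WT ESCs and 125 in WT 48h-EpiLCs.

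Of the linker genes, Hist1h1b, which encodes H1.5, had 202, 287, 300.2 and 287 CPM in WT ESCs, KO ESCs, WT 48h-EpiLCs and KO 48h-EpiLCs, so that WT ESCs stood below the other 3 classes. Its KO ratio was 0.51 (0.42 to 0.59) among ESCs and -0.07 (-0.13 to 0.00) among 48h-EpiLCs, where it was 0.07 without the 10% of cells with the most UMIs. Hist1h1e, which encodes H1.4, was also lowest in WT ESCs, with 38.5, 63.4, 63.8 and 58.6 CPM and a KO ratio of 0.72 (0.53 to 0.92) among ESCs.
Hist1h1a, for H1.1, differed little between ESC lines, with 67.1, 64.8, 70.6 and 57.0 CPM. Hist1h1d, for H1.3, had 57.8, 54.2, 42.9 and 32.1 CPM and was lower in 48h-EpiLCs by -0.43 (-0.66 to -0.20) in the WT line and -0.76 (-0.84 to -0.67) in the KO line. Hist1h1c, for H1.2, had 36.9, 42.3, 15.1 and 19.9 CPM and was past 1.5-fold lower in 48h-EpiLCs in both lines, at -1.29 (-1.65 to -0.93) and -1.09 (-1.19 to -0.98). Hist1h1c was the H1 gene with the lowest ratios between the stages. Hist1h1c and Hist1h1t carry an AATAAA hexamer near their annotated ends, and a link to the stage ratios was not tested. Hist1h1t, the testis linker histone gene, had 0.812, 5.01, 2.57 and 5.08 CPM, from 5 UMIs in WT ESCs.

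Hist1h2ap, the H2A gene whose stem-loop follows the run of A shown above, had 291, 294, 218 and 171 CPM in WT ESCs, KO ESCs, WT 48h-EpiLCs and KO 48h-EpiLCs. It did not differ between ESC lines within counting error (0.01, -0.06 to 0.08) but was lower in the KO line of 48h-EpiLCs (-0.35, -0.43 to -0.27) and lower in 48h-EpiLCs in both lines (-0.42, -0.52 to -0.31 and -0.78, -0.81 to -0.74). Hist1h2ae, another H2A gene, had 85.3, 55.9, 103 and 45.8 CPM, with KO ratios of -0.61 (-0.75 to -0.47) and -1.17 (-1.30 to -1.05). Hist2h2ac, an H2A gene with the only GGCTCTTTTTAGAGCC stem-loop, went the other way with 14.1, 27.1, 14.9 and 22.7 CPM and KO ratios of 0.94 (0.62 to 1.27) and 0.60 (0.30 to 0.92). Its levels in the KO line lay above those of the WT line in both libraries with no overlap of intervals, and the share of all features with no overlap was not computed. Hist1h2ak had 3.25, 4.74, 7.72 and 3.83 CPM. Hist2h2aa1 had 15.9, 17.5, 17.2 and 15.3 CPM. Hist1h2ac and Hist1h2ab stood at 2.11 to 7.64 CPM, and the testis H2A gene Hist1h2aa had 1.14, 2.74, 4.02 and 6.39 CPM from 7 to 379 UMIs.

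Of H2B genes, Hist1h2bc had the most UMIs, with 22.9, 22.2, 11.4 and 9.58 CPM in WT ESCs, KO ESCs, WT 48h-EpiLCs and KO 48h-EpiLCs, and was past 1.5-fold lower in 48h-EpiLCs in both lines (-1.0, -1.44 to -0.58 and -1.21, -1.36 to -1.06). Without cells that held 5 or more UMIs of feeder or primitive endoderm markers the latter was -0.71. Hist1h2bm had 9.42, 15.6, 10.1 and 11.7 CPM and was higher in the KO line among ESCs (0.73, 0.34 to 1.14). Hist1h2bj had 9.26, 8.25, 11.9 and 6.44 CPM and was lower in the KO line among 48h-EpiLCs (-0.88, -1.25 to -0.51). Hist1h2be was also lower there, with 7.80, 6.44, 9.0 and 5.57 CPM. The gene overlaps the end of Hist1h1e on the same strand, but its own annotated end shared no stretch with another gene. Hist2h2bb, Hist1h2br, Hist1h2bh, Hist1h2bb and Hist3h2ba stood between 2.27 and 12.1 CPM in all classes.

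Of 12 H3 genes, the 4 tested among ESCs and the 5 tested among 48h-EpiLCs all had a ratio below 0 in the KO line. The share of all features below 0 in each library was not computed, but their median ratio was 0.12 among ESCs and 0.07 among 48h-EpiLCs. Below 0 in both libraries at once were 2236 of the 8827 features tested in both. Hist1h3c had 26.7, 13.8, 34.6 and 15.1 CPM in WT ESCs, KO ESCs, WT 48h-EpiLCs and KO 48h-EpiLCs, with KO ratios of -0.95 (-1.20 to -0.69) and -1.19 (-1.41 to -0.97). Hist1h3d had 20.6, 10.9, 17.2 and 7.94 CPM, with -0.92 (-1.20 to -0.62) and -1.11 (-1.42 to -0.80). Hist1h3c and Hist1h3d had no overlap between the intervals of the WT and KO lines in either library. How often this held over all features was not computed. Hist1h3e had 15.3, 13.6, 18.3 and 12.0 CPM, and shares most of its end with Hist1h3f. Hist1h3f, Hist1h3a and Hist1h3b stood between 2.71 and 8.77 CPM.

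The H4 genes with the most UMIs were lower in the KO line as well. Hist1h4d had 30.7, 19.4, 36.5 and 17.1 CPM in WT ESCs, KO ESCs, WT 48h-EpiLCs and KO 48h-EpiLCs, with KO ratios of -0.66 (-0.89 to -0.43) and -1.09 (-1.30 to -0.88). Hist1h4i had 25.7, 18.8, 18.2 and 10.9 CPM, with -0.45 (-0.69 to -0.19) and -0.74 (-1.03 to -0.44), and it was also lower in 48h-EpiLCs than in ESCs (-0.50, -0.86 to -0.14 and -0.79, -0.94 to -0.64). Hist1h4h had 14.0, 10.3, 12.5 and 7.42 CPM. Hist2h4, which shares its form of stem-loop with Hist1h4i, had 7.31, 7.35, 3.38 and 2.65 CPM and so stood lower in 48h-EpiLCs in both lines, at -1.11 (-1.94 to -0.34) and -1.47 (-1.76 to -1.19). Hist1h4a stood between 4.86 and 6.50 CPM.

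Between the stages, the replication-dependent sum differed little in the WT line, at 0.05 (0.01 to 0.10) for 48h-EpiLCs over ESCs, and this became -0.06 when WT cells could hold 1 Y-linked UMI. In the KO line it was -0.36 (-0.38 to -0.34). Variants were at -0.04 (-0.06 to -0.02) and -0.01 in the WT and KO lines. Of 40 tested members in the WT line, 4 were higher and 5 lower past 1.5-fold, against 13.3% higher, 11.4% lower and 24.7% either way of all tested features. Of 36 in the KO line, 1 was higher and 8 were lower, against 8.55%, 10.1% and 18.6%. Hist1h1c, Hist1h2ac and Hist1h2bc were lower past 1.5-fold in both lines. These comparisons share classes with those between the lines, so their ratios are tied by arithmetic. The stages also differ in medium, in substrate and in library, which cannot be told apart. The ESC library is from serum with LIF, but the protocol of the study starts EpiLCs from cells kept in 2i/LIF, and which ESCs gave the 48h-EpiLC library was not given in the sources used here. The stage ratios are therefore not shown to be changes from the sequenced ESCs.

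Fibroblast markers, which feeder cells express, differed by line and stage, mostly through S100a6. The 8 fibroblast markers summed to 175 CPM in WT ESCs, 474 in KO ESCs, 25.9 in WT 48h-EpiLCs and 39.2 in KO 48h-EpiLCs, of which S100a6 alone was 165, 438, 19.0 and 28.6 CPM. Not all markers went the same way: Dcn had 0.65, 2.92, 4.02 and 5.99 CPM and was higher in 48h-EpiLCs, and Postn had 1.62 CPM in WT and 1.54 in KO ESCs. Lum was at 0 in WT ESCs, and Col3a1, Lum and Postn were at 0 in WT 48h-EpiLCs. The 6 primitive endoderm markers summed to 27.6, 47.6, 10.3 and 10.3 CPM, and Foxa2 was at 0 in WT 48h-EpiLCs. The 57 kept ESC-library cells with 20 or more UMIs of the 7 fibroblast markers other than S100a6, 21 of them in the KO line and none in the WT line, had 211 CPM of Hist1h2bc and 572 CPM of H2afj, against 23.4 and 159 CPM in the other 10997 cells. They had 1023 CPM of H2afz against 2685, and 93.2 CPM of Hist1h1b against 264. Without these 57 cells the replication-dependent sums of the KO ESCs were 1184 CPM and the variant sums 5782 CPM, next to 1181 and 5765 with them.

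Cells were then ranked within each library by the summed UMIs of the S-phase list or of the G2/M list, after each cell had been thinned to 5000 UMIs (10552 and 9197 cells, with 502 and 203 shallower cells left out), and split at the quartiles of that level into 4 bins, which held 1991 to 3001 cells because cells with tied levels stay together. From 1418 to 1880 cells lay at a boundary between bins, so a bin is a range of list levels and not a cell-cycle phase. Replication-dependent histones were higher in the bin with the highest S-phase level than in the lowest, at 1320 against 1140 CPM in the ESC library (log2 0.21, 0.18 to 0.24). In 48h-EpiLCs these bins had 1200.3 and 941 CPM (0.35, 0.32 to 0.39). They were lower in the bin with the highest G2/M level, by -0.18 (-0.21 to -0.15) and -0.32 (-0.36 to -0.29). Variants stayed within 0.05 of 0 in all 4 contrasts. The sets share a library and a depth here, and the differences between these bins were below 1.5-fold for both sums. These bins pool the lines: the lowest S-phase bin of 48h-EpiLCs held 165 WT and 577 KO cells, the highest 38 and 945. In WT ESCs the replication-dependent sum had overlapping intervals in the lowest and highest S-phase bins (1121 and 1138 CPM). KO ESCs had 1139 and 1315 CPM. By G2/M level, WT ESCs had 1356 and 886 CPM and KO ESCs 1234 and 1189, the latter with overlapping intervals. In 48h-EpiLCs each line moved in the pooled direction.

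The families parted by S-phase level, again in bins that pool the lines. H1 genes were higher in the top bin by 0.36 (0.31 to 0.41) in ESCs and 0.64 (0.58 to 0.69) in 48h-EpiLCs, and H2A genes by 0.30 and 0.23. H4 genes stood at -0.10 (-0.22 to 0.02) and -0.33 (-0.48 to -0.18), and H3 genes at -0.18 and -0.09. H2B genes were at -0.30 (-0.40 to -0.19) in ESCs, the lowest of the families there, and at 0.06 (-0.07 to 0.19) in 48h-EpiLCs. Most of the H2B difference in ESCs lay in Hist1h2bc, at 38.4 CPM in the lowest and 19.4 in the highest bin, beside 123 and 100 CPM for the family. The 57 cells with fibroblast markers had 211 CPM of Hist1h2bc, and 1389 CPM of the S-phase list against 4032 in other cells. Their part in the H2B value was not tested. By G2/M level, H2A, H2B, H3 and H4 genes were all lower in the top bin in both libraries, by -0.27 to -0.52, while H1 genes were at 0.11 (0.06 to 0.16) in ESCs and -0.16 (-0.22 to -0.11) in 48h-EpiLCs. Hist1h1b was at 0.51 and 0.76 by S-phase level in ESCs and 48h-EpiLCs, Hist2h2ac at 0.74 and 0.97, and Hist1h2ae at 0.20 and -0.05. Of the variants, H2afz stood at 0.12 and 0.02, H2afx at -0.25 and -0.64, and H1f0 at -0.43 and -0.74.

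Within the bins, the lines could be set side by side at like list levels. Among 48h-EpiLCs, replication-dependent genes without H1 were lower in the KO line in all 8 bins, 4 of each list, with no overlap of intervals, at 422 to 524 CPM against 600 to 791 CPM. With H1 included the KO line was lower in 8 of 8 bins, 5 of them with no overlap. Among ESCs the KO line was lower without H1 in 6 of 8 bins, with no overlap in 1, and it was higher with no overlap in 1 other. With H1 included it was lower in 1 of 8 ESC bins, and higher with no overlap in 3. Variants were lower in the KO line in 8 of 8 ESC bins and 6 of 8 48h-EpiLC bins, 2 and 1 of them with no overlap. The WT bins held 38 to 179 cells, and the 8 bins of a library hold the same cells ranked by either list.

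**Figure D4:**
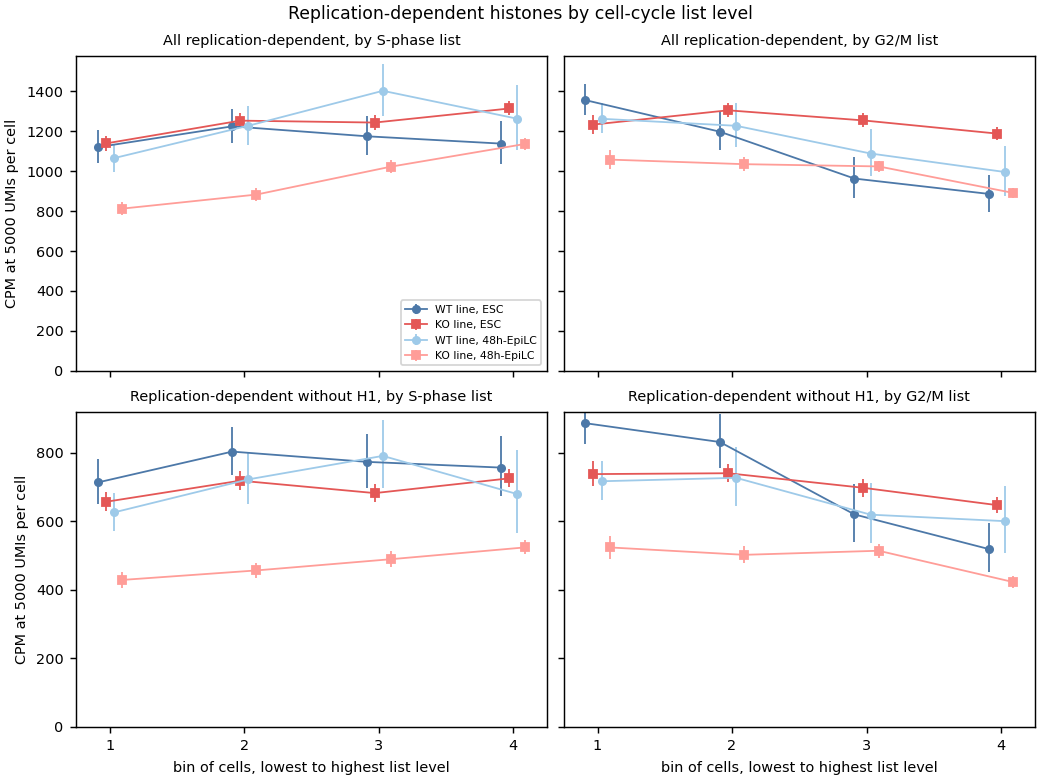
CPM at 5000 UMIs per cell of all replication-dependent histones (top) and of those without H1 (bottom) in bins of cells ranked by the S-phase list (left) or the G2/M list (right), for the WT (circles) and KO (squares) lines of both libraries; bars are 95% counting intervals. Without H1, the KO line of 48h-EpiLCs stays at 422 to 524 CPM, below the WT line at 600 to 791 CPM in each bin.

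Genes that process, carry and deposit histones were read from a list of 45 symbols, of which 44 were found (the list held Symplk, a misspelling of Sympk, which is in the files but was not used here) and all 44 were tested. In the KO line among ESCs, 3 were higher past 1.5-fold (6.8%) and none lower, against 12.4% and 4.98% of all tested features. Among 48h-EpiLCs 1 was higher (2.3%) and none lower, against 8.07% and 4.30%. Median ratios were 0.13 and 0.07 beside 0.12 and 0.07 for all features. The 3 among ESCs were Asf1b, an H3-H4 chaperone (20.8 against 36.5 CPM in WT and KO ESCs), Ino80, a remodeller that exchanges H2A.Z (56.0 against 95.4 CPM), and Zfp473, a zinc finger protein of the U7 processing complex (8.45 against 16.4 CPM). Zfp473 was again higher in the KO 48h-EpiLCs, at 11.8 against 7.07 CPM.

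Slbp, which encodes the stem-loop binding protein, had 159, 178, 175 and 220 CPM in WT ESCs, KO ESCs, WT 48h-EpiLCs and KO 48h-EpiLCs, and so was higher in the KO line where the replication-dependent genes were lower (0.33, 0.24 to 0.42). Nasp, the H3-H4 storage chaperone, had 1077, 1209, 998 and 1041 CPM. Asf1a, which hands H3-H4 to the deposition complexes, had 97.5, 110, 100.2 and 126 CPM. Chaf1a, the large subunit of the CAF-1 complex that deposits H3.1 at replication forks, had 112, 133, 74.1 and 96.5 CPM and was past 1.5-fold lower in WT 48h-EpiLCs (-0.60, -0.77 to -0.43). Hira, the H3.3 chaperone, had 58.6, 48.3, 67.0 and 46.5 CPM and was lower in the KO line of 48h-EpiLCs by -0.53 (-0.68 to -0.37). Between the stages, Atrx and Ino80 were past 1.5-fold lower in 48h-EpiLCs in both lines, with Ino80 at -0.96 and -1.45 and Atrx at -0.80 and -0.64. Daxx was lower in the WT line (-0.67), Lsm11 (0.96) and Yeats4 (0.64) were higher in the WT line, and Chaf1b was higher in the KO line (0.61).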

How the data were processed

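The deposited files hold UMI counts by gene and barcode from Chromium Single Cell 3′ libraries. The authors ran Cell Ranger 3.0.2 at its defaults on mm10, extended by the tdTomato coding sequence. The submitters' notes also name Seurat (version 4). No normalisation or removal of free RNA is stated. Use of read strand was not given in the sources used here.

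Counts were summed per line and library and scaled to CPM. CPM intervals were exact Poisson, ratio intervals exact conditional binomial, and shares exact Clopper-Pearson, all at 95% and for counting error only, as were the limits for a count of 0 (3 counts). The depth was 6154790 to 59291903 UMIs per class. The pseudocount was 1 CPM and the minimum mean 5 CPM. Doublets were not called, and removal of the 10% of cells with the most UMIs stood as an alternative. Stem-loops, A-rich windows and shared stretches were computed from GENCODE M21. Calls and intervals were tested on simulated data. Python 3.11.15, numpy 2.4.6, scipy 1.17.1 and pandas 2.3.3 were used.

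The members and all gene lists were chosen with earlier results of these data known. Genes were named by level: the 12 replication-dependent and 12 variant members with the most CPM, other members of at least 5 CPM in a class, 5 fixed pathway genes (Slbp, Nasp, Hira, Asf1a and Chaf1a), and pathway genes past 1.5-fold, up to 5 per comparison.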

Additional observations from a re-analysis of the deposited data

Results flagged for a closer look

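The KO line stood on opposite sides of the WT line in the libraries, with both counting intervals away from 0, for the replication-dependent sum, 2 of its families and 1 variant. The difference itself was not tested, since each stage had 1 library. The log2 ratio of 48h-EpiLCs minus that of ESCs was -0.41 for the replication-dependent sum (0.07 among ESCs and -0.35 among 48h-EpiLCs). It was -0.47 for H1 genes (0.36 and -0.11) and -0.53 for H2B genes (0.15 and -0.38). For H1f0 it was -1.27 (0.54 and -0.74). Relative to the median of all features, the replication-dependent ratio among ESCs was -0.06, and then both libraries had the same sign.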

How the results depend on the processing

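No paired analysis was possible because each stage had 1 library and the replicate number pairs nothing. Signs were checked only for the sums and for the replication-dependent and variant members with the most CPM. Among these, no value past 1.5-fold turned its sign under the alternatives. Members past 1.5-fold with fewer CPM, such as Hist1h3d, were not checked. Of 192 values of sums, counts, shares and list bins, 142 stayed within the counting interval or within 1.5 times the count. The causes of the moves were not tested. Ratios here are log2. Summed replication-dependent histones of the KO over the WT line among 48h-EpiLCs became -0.29 without the 10% of cells with the most UMIs, -0.29 with at least 1 Y-linked UMI for the KO line, -0.27 with at most 1 Y-linked UMI for the WT line, -0.29 as means of per-cell shares and -0.42 when centred on the median of all features. Among ESCs they became -0.056 when centred. For 48h-EpiLCs over ESCs in the KO line they became -0.30 without the 10% of cells with the most UMIs, -0.39 without cells with 5 UMIs of feeder or primitive endoderm markers, -0.34 with at least 1 Y-linked UMI and -0.34 when centred, and in the WT line -0.056 with at most 1 Y-linked UMI. Summed variants of the KO over the WT line became -0.19 when centred and -0.088 with totals without mitochondrial and ribosomal protein genes among ESCs, and -0.11 and -0.065 among 48h-EpiLCs. For 48h-EpiLCs over ESCs they became -0.069 in the WT line when centred, and in the KO line 0.0094 when centred, -0.00231 with those totals, -0.019 with at most 5% mitochondrial UMIs, -0.031 without the 10% of cells with the most UMIs, -0.027 without marker cells and -0.021 as per-cell means. The replication-dependent share of histone UMIs became 16.2%, 17.5%, 17.3% and 15.0% (WT ESCs, KO ESCs, WT and KO 48h-EpiLCs) without the 10% of cells with the most UMIs, and 16.3%, 17.7%, 17.1% and 14.7% as per-cell means. In KO ESCs it was 16.8% with at most 5% mitochondrial UMIs or at least 3 Y-linked UMIs, 17.2% without marker cells and 17.3% with at least 1 Y-linked UMI, which gave 14.3% in KO 48h-EpiLCs. With at most 1 Y-linked UMI, WT ESCs had 16.1% and WT 48h-EpiLCs 15.9%. Without a filter on CPM, members past 1.5-fold numbered 14 (KO over WT line, ESCs), 26 (KO over WT line, 48h-EpiLCs) and 18 (stages, WT line). The share over all features was not computed without the filter, so these counts show nothing particular to histone genes. Thinned to 10000 UMIs, the top over bottom bin for replication-dependent genes was 0.28 by S-phase and -0.30 by G2/M level in ESCs and -0.45 by G2/M level in 48h-EpiLCs, and for variants -0.073 and -0.065 by G2/M level. Without marker cells, replication-dependent genes were at 0.13 by S-phase and -0.22 by G2/M level in ESCs and 0.29 by S-phase level in 48h-EpiLCs, and variants in ESCs at -0.0036 and -0.095. Of 1010 values of the members checked under the alternatives, 27 had another sign than the main value, 26 of them where that value was under 0.15 in size. Removal of the 57 cells with 20 UMIs of 7 feeder markers, chosen after seeing the data, left every sum and share within its counting interval and every count within 1.5 times. Genes below 5 CPM rest on few UMIs in the WT line, which held the fewest cells.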
